A study of Mus musculus with 6 samples.

Results

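Connexins are the membrane proteins of gap junctions, and 8 of the 20 connexin genes listed in the ovary count table were examined here: Gja1, Gja4, Gja5, Gjb1, Gjb2, Gjb5, Gjb6 and Gjc1. The table lists 44788 genes in all. The 8 were picked by symbol, and they were chosen from the values of these same 6 ovaries, so their differences between the genotypes are given as a description. Intervals and fits of the members describe these ovaries and are no independent evidence of a difference. Of the 8 genes, 6 had enough reads to be fitted with the rest of the transcriptome, while Gjb5 and Gjb6 were too low and are given as reads.

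The ovaries came from 8-week-old mice on the C57BL/6 J background. The 3 Bnc1+/+ mice (replicates 1, 4 and 7) were wild type for basonuclin 1, a zinc finger protein of germ cells and some epithelia. The 3 Bnc1tr/tr mice (replicates 1, 2 and 3) carried on both alleles a short germline deletion in a coding exon of Bnc1, which shifts the reading frame and truncates the protein wherever it is made, so the ovary cannot be separated from the rest of the animal in this model. RNA of whole ovaries was sequenced as 1 single-end library per mouse, and the question behind the comparison was how the truncation alters the ovarian transcriptome.

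Connexins assemble as hexamers in the plasma membrane, and hexamers of adjoining cells dock to form a channel that passes ions and small molecules such as cyclic nucleotides. In the ovary, the product of Gja1 (connexin 43) couples granulosa cells to each other, and the product of Gja4 (connexin 37) forms the channels between the oocyte and its granulosa cells. Gja4, Gja5 (connexin 40) and Gjc1 (connexin 45) also couple cells of the vessel wall, whereas the beta connexins Gjb1, Gjb2, Gjb5 and Gjb6 (connexins 32, 26, 31.1 and 30) are best known from liver, inner ear and stratified epithelia.

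Reads per ovary totalled between 25247770 and 34406296, with no overlap between the genotypes. Levels are given as CPM, the reads of a gene scaled to a common library size with TMM factors, and group values as mean ± SD. Replicates of a genotype differed from each other by more than counting error (chi-square per degree of freedom 17.0 to 64.4). Bnc1 itself measured 13.9, 13.4 and 13.1 CPM in Bnc1+/+ ovaries and 18.7, 13.7 and 11.5 CPM in Bnc1tr/tr ovaries, a log2 fold change of 0.12 ± 0.18 (SE), and a count for the whole gene cannot reveal the deletion. Of 19423 genes fitted with edgeR's quasi-likelihood test, 1372 (7.06%) had a Benjamini-Hochberg adjusted p under 0.05, 559 of them (2.88%) higher and 813 (4.19%) lower in Bnc1tr/tr ovaries. For 5985 of the genes fitted (30.8%) the ranges of the 2 genotypes did not overlap. The study's methods describe the mice compared as littermates, but which ovaries share a litter is not given, and p-values measure only the spread between these samples.

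In GRCm38 Gja1 lies on chromosome 10 from 56377330 to 56402513, Gja5 on chromosome 3 from 96904693 to 97077416 and Gjb1 on chromosome X from 101376378 to 101385629, all on the plus strand. On the minus strand, Gjc1 lies on chromosome 11 from 102799579 to 102819700, Gja4 and Gjb5 share chromosome 4 (127311421 to 127314039 and 127354809 to 127358181), and Gjb2 and Gjb6 share chromosome 14 (57098600 to 57104702 and 57123303 to 57133611). Except in Gja5, the coding sequence of each member sits in 1 exon.

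The members are related in sequence, so the first matter is whether reads of a member could be counted on another. Over the 28 pairs of members, the coding sequences of GRCm38 (GENCODE M21) were between 55.6% and 75.7% identical, and the closest pair was Gjb2 with Gjb6, identical at 513 of 678 aligned bases. The next closest pair reached 68.1%. The longest run that Gjb2 and Gjb6 share without a difference is 20 bases. It lies in the 60-base stretch shown here, at bases 194 to 253 of both coding sequences, on the minus strand at chr14:57100497-57100556 for Gjb2 and chr14:57124550-57124609 for Gjb6. The 10 positions at which the 2 genes differ are in capitals.

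Gjb2: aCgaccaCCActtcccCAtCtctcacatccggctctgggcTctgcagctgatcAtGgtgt
Gjb6: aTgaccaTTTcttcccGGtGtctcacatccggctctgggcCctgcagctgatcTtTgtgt

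No 31-base word of the annotated transcripts of Gjb1, Gjb2, Gjb5, Gjb6 or Gja4 occurred in a transcript of another gene. The share of such words was 1.38% for Gja1 and 0.716% for Gjc1. For Gja5 it was 16.6%, most of it shared with Zfp697 and Gpr89, and Gja5 also overlaps Gpr89 on the opposite strand. How the counting treated shared words and strand is not given in the sources used here, so the Gja5 level is less certain than those of the other members.

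Gja1 supplied most of the connexin RNA of the ovary in both genotypes. It had 965, 1136 and 1039 CPM in the Bnc1+/+ ovaries and 1449, 875 and 1088 CPM in the Bnc1tr/tr ovaries, means of 1047 ± 85.8 and 1137 ± 290 (SD, n = 3). The Bnc1tr/tr ovaries held both the highest and the lowest value, so the genotypes overlapped. The log2 fold change was 0.12 ± 0.18 (SE), with a 95% interval from -0.29 to 0.53. It was -0.093 without Bnc1tr/tr replicate 1, the ovary with the highest level. Of all connexin CPM, the Gja1 share was 91.7%, 93.0% and 92.3% in Bnc1+/+ ovaries, with 92.8%, 90.7% and 91.2% in Bnc1tr/tr ovaries. As a share of the summed CPM of 10 granulosa cell markers, Gja1 was at 23.1%, 23.6% and 29.2% in Bnc1+/+ and at 23.6%, 21.9% and 19.0% in Bnc1tr/tr ovaries, again overlapping. Of those 10 markers 1 was called, Amh (higher), beside 7.06% of all genes fitted, and 5 of the 10 had a positive log2 fold change.

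The genes whose profile over the 6 ovaries lay nearest to that of Gja1 were Lonrf2, Pomt1, 2810408M09Rik, Gpr180 and 4930581F22Rik. Likeness was the root mean square distance between log2 CPM values, each gene centred on its own mean, over the 16752 genes averaging 1 CPM or more, and the 5 distances ran from 0.047 to 0.059. Like Gja1, all 5 were highest in Bnc1tr/tr replicate 1 and lowest in Bnc1tr/tr replicate 2, a feature that nearness to Gja1 itself selects for.

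Gja4 had the smallest log2 fold change of the members fitted. Its levels were 52.0, 52.1 and 51.2 CPM in Bnc1+/+ ovaries and 58.6, 47.0 and 57.7 CPM in Bnc1tr/tr ovaries, means of 51.8 ± 0.51 and 54.4 ± 6.47 (SD, n = 3). The Bnc1+/+ values lay within the range of the Bnc1tr/tr values, and the log2 fold change was 0.07 ± 0.10 (SE; 95% interval -0.16 to 0.31). Gja4 is known from both endothelial cells and oocytes, whose markers moved differently here.

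Against the summed CPM of 8 endothelial markers, Gja4 stood at 7.06%, 6.38% and 5.38% in Bnc1+/+ and at 11.9%, 8.08% and 10.1% in Bnc1tr/tr ovaries. Against 10 oocyte markers it stood at 7.38%, 7.77% and 9.43% in Bnc1+/+ and at 5.77%, 7.001% and 5.61% in Bnc1tr/tr ovaries. Neither ratio overlapped between the genotypes, and they moved in opposite directions while the Gja4 level itself overlapped. The endothelial markers summed to 738, 817 and 952 CPM in Bnc1+/+ and to 494, 581 and 572 CPM in Bnc1tr/tr ovaries. Of these 8 markers 4 (Pecam1, Cdh5, Kdr and Tek) were called lower, beside 4.19% of all genes fitted. The oocyte markers summed to 705, 671 and 543 CPM against 1016, 671 and 1027 CPM, which overlap. Of the 10, 8 had a positive log2 fold change and 3 (Gdf9, Bmp15 and Oosp1) were called higher, beside 2.88% of all genes fitted. In RNA of a whole ovary, fewer cells of a type and less RNA per cell cannot be told apart.

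The vascular connexins Gja5 and Gjc1 were both lower in Bnc1tr/tr ovaries. Gja5, a connexin of arterial endothelium, had 5.02, 4.29 and 5.55 CPM in Bnc1+/+ ovaries and 2.38, 2.46 and 2.89 CPM in Bnc1tr/tr ovaries, from 135, 142 and 161 reads against 67, 64 and 82. Every Bnc1+/+ value lay above every Bnc1tr/tr value. The means were 4.95 ± 0.634 and 2.58 ± 0.273 CPM (SD, n = 3), a ratio of 0.521 and a log2 fold change of -0.94 ± 0.20 (SE; 95% interval -1.39 to -0.49). With any 1 of the 6 ovaries left out the log2 fold change lay between -1.04 and -0.86. An adjusted p under 0.05 was not reached in any of these 6 fits. Of the genes that share sequence with it, Gpr89 had a log2 fold change of 0.05 and Zfp697 of 0.33.

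Gja5 was also lower relative to the sums of vascular markers. As a share of the endothelial marker sum it was 0.680%, 0.525% and 0.583% in Bnc1+/+ ovaries and 0.483%, 0.424% and 0.506% in Bnc1tr/tr ovaries. Of 6 arterial markers Dll4 was the 1 called, lower, beside 4.19% of all genes fitted. Against their sum Gja5 was 6.71%, 5.67% and 6.76% in Bnc1+/+ ovaries and 4.12%, 4.22% and 5.22% in Bnc1tr/tr ovaries. Neither share overlapped between the genotypes. Single markers differed. Dll4, Pecam1 and Cdh5 had ratios of 0.545, 0.554 and 0.604, near the 0.521 of Gja5, and the highest ratio of an endothelial marker was 0.808, for Emcn. The arterial markers Efnb2, Sox17 and Hey1 had ratios of 0.821, 0.851 and 0.887, so only Dll4 in the arterial list was near Gja5. Of the 6 arterial markers 2, Gkn3 and Bmx, had a positive log2 fold change. The endothelial markers were lower in the same ovaries, and their part in the Gja5 level was not tested.

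Gjc1, a connexin of smooth muscle and other mural cells, had 18.8, 19.4 and 17.9 CPM in Bnc1+/+ ovaries and 13.6, 12.8 and 15.1 CPM in Bnc1tr/tr ovaries. The ranges did not overlap, but the difference was modest, with means of 18.7 ± 0.784 and 13.8 ± 1.15 CPM (SD, n = 3), a ratio of 0.738 and a log2 fold change of -0.44 ± 0.11 (SE; 95% interval -0.68 to -0.19). Under 12 alternatives, the omission of each ovary among them, its log2 fold change lay between -0.51 and -0.34, with an adjusted p under 0.05 in 2 of the 12. The 8 smooth muscle and pericyte markers summed to overlapping levels, 1866 to 2047 CPM in Bnc1+/+ ovaries and 1846 to 2035 CPM in Bnc1tr/tr ovaries. Of the 8, 2 were called lower, the pericyte genes Cspg4 and Notch3, beside 4.19% of all genes fitted. As a share of that sum Gjc1 was 0.917%, 1.04% and 0.919% in Bnc1+/+ ovaries and 0.734%, 0.628% and 0.756% in Bnc1tr/tr ovaries, without overlap. Most of the sum was Acta2, Tagln and Myh11, with Bnc1+/+ means of 829, 458 and 404 CPM. Notch3, Rgs5 and Cspg4 had ratios of 0.424, 0.576 and 0.611, lower than that of Gjc1. Des had a ratio of 1.61, and 4 of the 8 markers had a positive log2 fold change. The share thus depends on the markers summed.

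**Figure D1:**
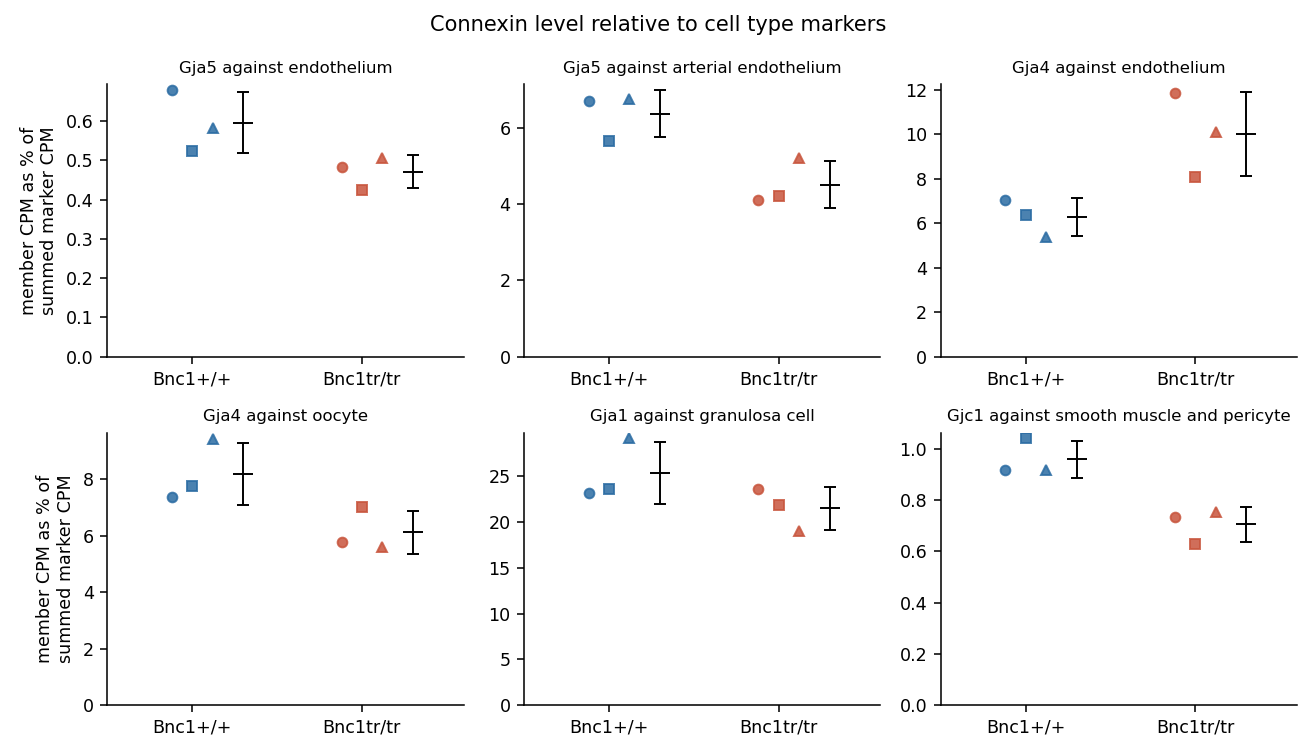
Each panel gives the CPM of a connexin as a percent of the summed CPM of a list of cell type markers, per ovary (circle, square and triangle are Bnc1+/+ replicates 1, 4 and 7 in blue and Bnc1tr/tr replicates 1, 2 and 3 in red), with mean and SD in black. The shares of Gja5 and Gjc1 are lower and that of Gja4 in the endothelial panel is higher in Bnc1tr/tr ovaries, while Gja1 against granulosa cell markers overlaps.

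Among the 8 members the beta connexin Gjb2 differed most. In Bnc1+/+ ovaries it was close to the limit of detection, with 14, 2 and 2 reads, and in Bnc1tr/tr ovaries it had 576, 340 and 441 reads. In CPM these were 0.520, 0.060 and 0.069 against 20.5, 13.1 and 15.5, with means of 0.217 ± 0.263 and 16.4 ± 3.77 (SD, n = 3), a log2 fold change of 6.29 ± 0.57 (SE; 95% interval 4.97 to 7.60). All 3 Bnc1tr/tr ovaries were high, and of the 18 reads in Bnc1+/+ ovaries 14 came from replicate 1. With all ovaries the fitted ratio was 78.1. Without Bnc1+/+ replicate 1 both remaining Bnc1+/+ libraries lie under 3 reads, the number taken as the floor. Against that floor the mean of the Bnc1tr/tr ovaries was at least 169-fold higher. This bound leaves out the ovary with most Bnc1+/+ reads and the spread between Bnc1tr/tr ovaries. Over the 11 alternatives that fitted Gjb2, its log2 fold change ran from 5.79 to 7.89. The filter of at least 10 reads in every ovary removes it.

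Gjb6 lies next to Gjb2 on chromosome 14, 18601 bases away and on the same strand. It had 0, 1 and 0 reads in Bnc1+/+ ovaries and 4, 9 and 9 reads in Bnc1tr/tr ovaries. Measured against a floor of 3 reads per Bnc1+/+ library, it was at least 2.64-fold higher in Bnc1tr/tr ovaries. The ranges did not overlap, but at 0.269 ± 0.110 CPM (SD, n = 3) it remained far under Gjb2. Gja3, the connexin gene on the other side of Gjb2, had 2, 3 and 7 reads in Bnc1+/+ ovaries and 4, 4 and 8 reads in Bnc1tr/tr ovaries, which overlap.

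The windows upstream of the Gjb2 and Gjb6 starts are shown because these neighbours are the beta connexins that were higher in every Bnc1tr/tr ovary from near 0, and that of Gja1 because it carries most of the connexin RNA. They are the 250 bases before the RefSeq start in GRCm38.p6, at chr14:57104703-57104952 (minus strand), chr14:57133612-57133861 (minus strand) and chr10:56377050-56377299 (plus strand). All 8 members were looked up, and 7 had an entry (Gjc1 did not). Capitals mark matches on either strand to any of 6 motifs searched: the TATA box TATAAA, the GC box GGGCGG, the CCAAT box CCAAT, the AP-1 word TGANTCA, the TEAD word GGAATG and the NR5A word AAGGTCA.

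Gjb2: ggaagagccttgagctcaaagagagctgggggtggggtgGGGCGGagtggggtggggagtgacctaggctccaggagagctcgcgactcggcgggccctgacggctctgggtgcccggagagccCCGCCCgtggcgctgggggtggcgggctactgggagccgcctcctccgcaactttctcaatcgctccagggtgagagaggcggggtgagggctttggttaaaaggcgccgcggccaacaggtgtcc
Gjb6: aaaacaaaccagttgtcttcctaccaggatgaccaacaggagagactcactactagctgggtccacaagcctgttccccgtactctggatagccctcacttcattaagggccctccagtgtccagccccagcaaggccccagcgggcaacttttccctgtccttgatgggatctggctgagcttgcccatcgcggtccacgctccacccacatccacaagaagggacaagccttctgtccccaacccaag
Gja1: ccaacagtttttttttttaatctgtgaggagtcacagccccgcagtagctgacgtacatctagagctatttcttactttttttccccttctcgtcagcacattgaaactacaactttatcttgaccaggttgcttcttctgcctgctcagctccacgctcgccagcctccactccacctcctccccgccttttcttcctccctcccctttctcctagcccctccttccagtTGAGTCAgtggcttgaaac

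The Gjb2 window is rich in GC (69.2%) and holds 18 CpG, more than 78.3% of the 32851 windows of this kind, whose median is 6. It has 2 GC boxes, starting 211 and 126 bases before the start. The Gjb6 window, at 56.8% GC and 5 CpG, holds none of the 6 motifs. The Gja1 window has 1 AP-1 word, 19 bases before the start, and no other of the motifs. A GC box occurs in 32.7% of all windows and an AP-1 word in 6.75%, and a match describes the letters only.

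The genes whose profile lay nearest to that of Gjb2 were Foxn4, Dscaml1, Vwa5b2, Krt35 and Mpo, at distances of 0.821, 0.842, 1.13, 1.17 and 1.25 on the log2 CPM scale. Foxn4 encodes a forkhead transcription factor, Dscaml1 a cell adhesion molecule, Krt35 a hair keratin and Mpo the myeloperoxidase of granulocytes. Foxn4 had 9, 1 and 3 reads in Bnc1+/+ ovaries and 159, 95 and 147 reads in Bnc1tr/tr ovaries. Krt35 had 1 read in each Bnc1+/+ ovary and 73, 54 and 44 reads in Bnc1tr/tr ovaries. All 5 were higher in every Bnc1tr/tr ovary than in any Bnc1+/+ ovary, a feature that nearness to Gjb2 itself selects for. The distance of the nearest gene to Gjb2 was large beside that of the nearest gene to Gja1, whose own spread was smaller.

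**Figure D2:**
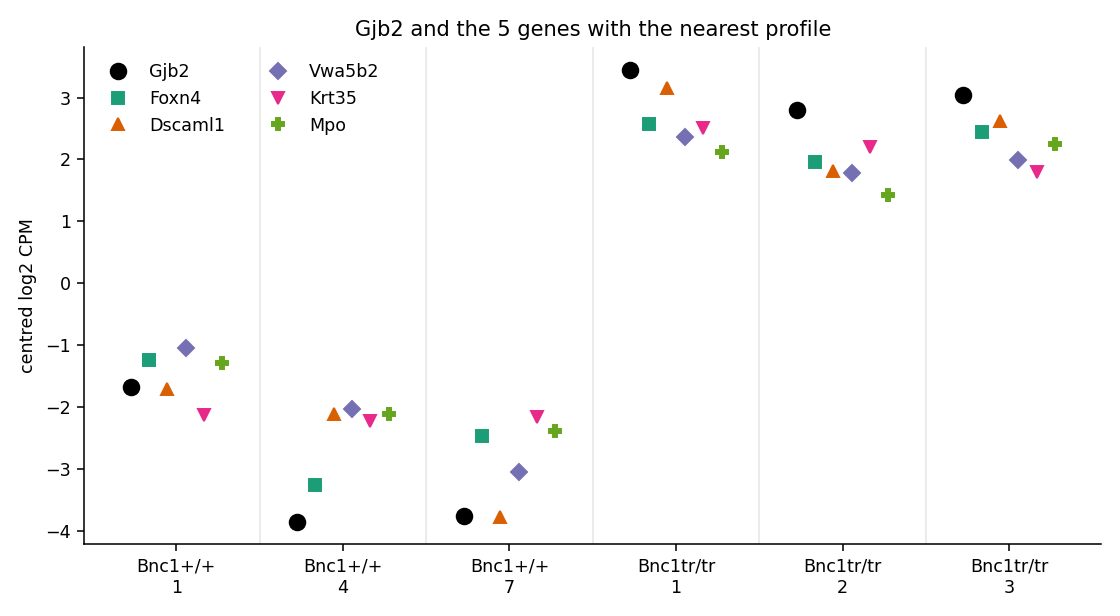
Points are log2 CPM of Gjb2 (black circles) and of the 5 genes nearest to it, each centred on its own mean over the 6 ovaries on the horizontal axis. All points of the Bnc1+/+ ovaries lie under 0 and all points of the Bnc1tr/tr ovaries above 0, and Gjb2 has the highest value in each Bnc1tr/tr ovary.

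Values of other epithelia are given beside Gjb2. The 8 oviduct epithelium markers summed to 159, 48.7 and 43.9 CPM in Bnc1+/+ and to 52.4, 52.2 and 555 CPM in Bnc1tr/tr ovaries. They were thus high in Bnc1tr/tr replicate 3 and, among Bnc1+/+ ovaries, in replicate 1, which also has most of the Bnc1+/+ Gjb2 reads. In Bnc1tr/tr replicate 1, the ovary with the highest Gjb2 level, the sum of 52.4 CPM lay within the range of the Bnc1+/+ ovaries. Most of the sum in the 2 highest ovaries was the oviductal glycoprotein gene Ovgp1, at 106 and 423 CPM. Of all ovaries, Bnc1tr/tr replicate 1 had the lowest Ovgp1 level. Of the 8 markers the homeobox gene Pax2 was called, higher, beside 2.88% of all genes fitted. Pax2 was at 0.781, 1.15 and 0.862 CPM in Bnc1+/+ ovaries and 4.80, 2.04 and 2.71 CPM in Bnc1tr/tr ovaries (log2 fold change 1.77 ± 0.37, SE; adjusted p = 0.033 with edgeR). Pax8 did not overlap between the genotypes either (log2 fold change 1.65 ± 0.49, SE; adjusted p = 0.086 with edgeR). Gjb2 was at 20.5, 13.1 and 15.5 CPM in Bnc1tr/tr replicates 1, 2 and 3, and the part of oviduct RNA in these levels was not tested. Of the 10 epidermal keratinocyte markers 5 were fitted and 0 were called by edgeR, DESeq2 or limma-voom. At an unadjusted p under 0.05 with edgeR there was 1, Krt1, which was higher (log2 fold change 0.95). Ivl and Dsg3 had 0 reads in all ovaries, and Krt5 had at most 1 read. The list summed to 15.7 to 16.7 CPM in Bnc1+/+ ovaries and 17.7 to 22.2 CPM in Bnc1tr/tr ovaries, without overlap. Most of that sum was Sfn and Trp63, with means of 7.48 and 5.55 CPM in Bnc1+/+ and 8.90 and 7.05 CPM in Bnc1tr/tr ovaries. Sfn did not overlap between the genotypes, whereas Trp63 did. Of the 5 markers fitted, 4 had a positive log2 fold change, and that of Krt14 was -0.65. Of the 8 markers of the ovarian surface epithelium 0 were called by edgeR, DESeq2 or limma-voom, and 1 had an unadjusted p under 0.05 with edgeR.

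Gjb1 and Gjb5 were low throughout. Gjb1, the main connexin of liver, had 18, 26 and 18 reads in Bnc1+/+ ovaries and 51, 21 and 48 reads in Bnc1tr/tr ovaries, or 0.669, 0.786 and 0.621 CPM against 1.81, 0.808 and 1.69 CPM. The lowest Bnc1tr/tr value, in replicate 2, was just above the highest Bnc1+/+ value. The log2 fold change was 1.05 ± 0.36 (SE; 95% interval 0.22 to 1.88). Without Bnc1tr/tr replicate 2 it was 1.33. Of 6 hepatocyte markers 3 were fitted, and Apoa1 was called, higher, beside 2.88% of all genes fitted. Cyp2e1 had a log2 fold change of 1.34 ± 0.71 (SE), with overlapping ranges. Alb, also fitted, had 25, 88 and 3 reads in Bnc1+/+ ovaries and 10, 3 and 11 reads in Bnc1tr/tr ovaries. Fgb had at most 3 reads. The part of such transcripts in the Gjb1 level was not tested. Within 100 kilobases of Gjb1, 5 genes were fitted and Nlgn3, a neuronal adhesion gene 50415 bases away, was called higher, beside 2.88% of all genes fitted. Nlgn3 had a log2 fold change of 1.06 ± 0.21 (SE). Gjb5, a connexin of skin and placenta, had 6, 6 and 6 reads in Bnc1+/+ ovaries and 7, 8 and 2 reads in Bnc1tr/tr ovaries, and at this depth no difference was detectable.

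**Figure D3:**
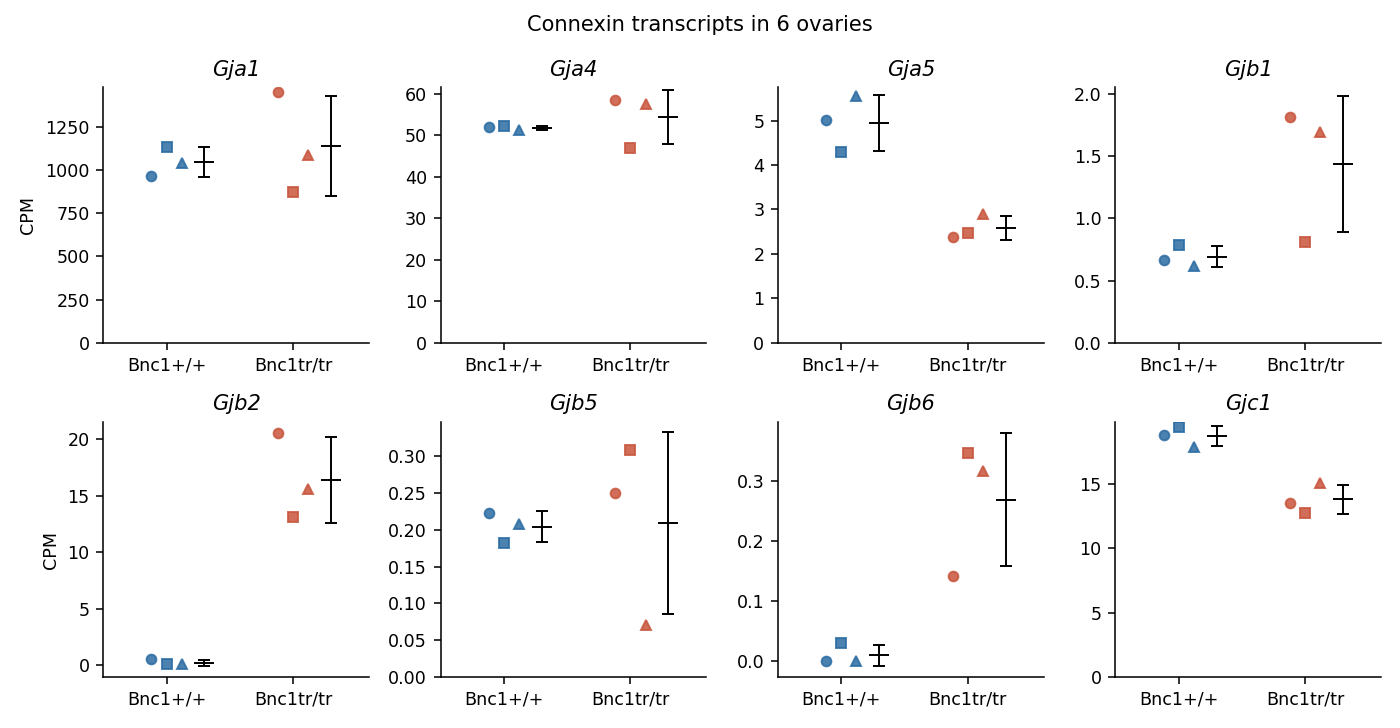
CPM of the 8 connexins in each ovary, in panels with their own linear axes (circle, square and triangle are Bnc1+/+ replicates 1, 4 and 7 in blue and Bnc1tr/tr replicates 1, 2 and 3 in red), with mean and SD in black. Gjb2 and Gjb6 are near 0 in Bnc1+/+ ovaries, Gja5 and Gjc1 are lower in all Bnc1tr/tr ovaries, and Gja1, Gja4 and Gjb5 overlap.

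Of the 6 members fitted, Gjb2 (higher) and Gja5 and Gjc1 (lower) had an adjusted p under 0.05, beside 7.06% of all genes. The choice of the genes used this contrast, so nothing is read from that count. The ranges of the genotypes did not overlap for Gja5, Gjb1, Gjb2 and Gjc1, beside 30.8% of all genes fitted.

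**Figure D4:**
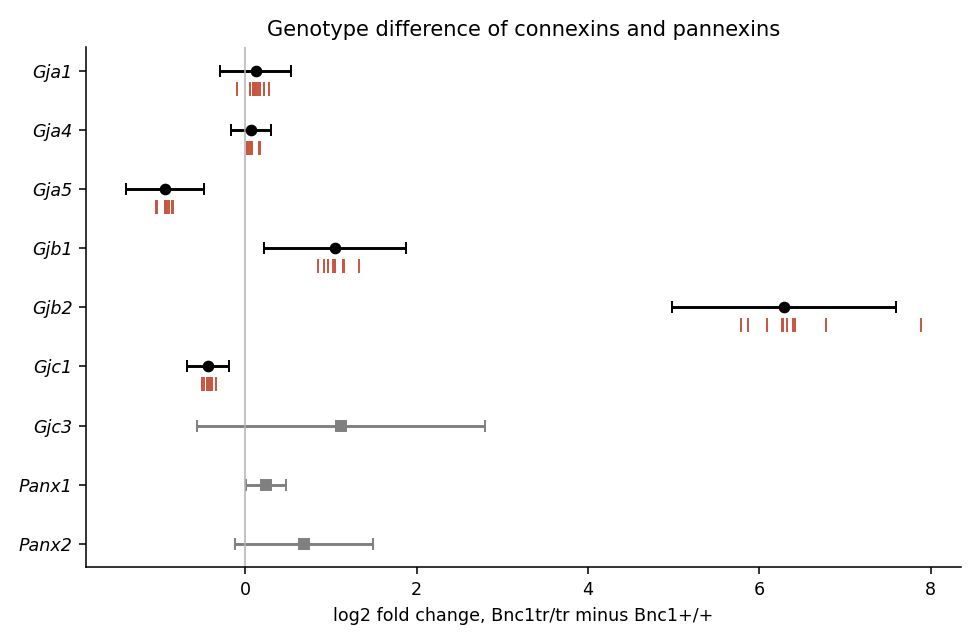
Log2 fold change of Bnc1tr/tr against Bnc1+/+ ovaries with its 95% interval for the 6 fitted members (black circles) and 3 others, Gjc3, Panx1 and Panx2 (gray squares), with red ticks for the values of the members under alternative settings and with ovaries left out. Gjb2 lies at 6.29, Gja5 and Gjc1 lie under 0, and the intervals of Gja1 and Gja4 span 0.

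The 12 other connexin genes and 3 pannexin genes of the table were a background for the members. Of these 15, 4 were fitted and 0 were called by edgeR, with 1 at an unadjusted p under 0.05 and 0 called by DESeq2 or limma-voom. Panx1, which forms large-pore channels without docking, was the 1, at 25.1, 25.6 and 25.1 CPM in Bnc1+/+ ovaries and 32.6, 26.6 and 30.3 CPM in Bnc1tr/tr ovaries. Panx2 was at 0.661 ± 0.136 CPM in Bnc1+/+ and 1.06 ± 0.369 CPM in Bnc1tr/tr ovaries (SD, n = 3), with overlapping ranges. Gjc3, a glial connexin, had 202 reads in Bnc1tr/tr replicate 1 but 54 and 24 in the other Bnc1tr/tr ovaries, a spread within the genotype that took in all Bnc1+/+ ovaries. Panx3 was at least 2.43-fold lower in Bnc1tr/tr ovaries, at 0, 1 and 0 reads against 3, 9 and 12, measured against a floor of 3 reads. Gjd2 and Gje1 had 0 reads in all ovaries, which allows at most 3 reads, 0.091 to 0.115 CPM, in each.

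By class, the beta connexins held 0.166%, 0.104% and 0.0980% of all connexin CPM in Bnc1+/+ ovaries and 1.48%, 1.57% and 1.49% in Bnc1tr/tr ovaries. Gjb2 alone was 29.8%, 4.76% and 6.25% of the beta class in Bnc1+/+ ovaries and 88.6%, 86.7% and 87.7% in Bnc1tr/tr ovaries. The alpha class held 97.1% to 97.6% in Bnc1+/+ ovaries and 95.9% to 96.7% in Bnc1tr/tr ovaries. The gamma class, to which Gjc1 belongs, held 2.29% to 2.70% and 1.77% to 2.50%, which overlap. Of these 3 classes, the beta class was the 1 whose share was higher in every Bnc1tr/tr ovary, and it remained a small part of the whole beside Gja1.

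To compare levels between genes, CPM was divided by the merged exon length in kilobases. On that scale Gja1 was first (102 ± 8.36 CPM per kilobase in Bnc1+/+ ovaries and 111 ± 28.3 in Bnc1tr/tr ovaries; SD, n = 3) and Gja4 second (30.7 ± 0.303 and 32.3 ± 3.84). In Bnc1+/+ ovaries Gjc1 (3.74 ± 0.157) was in place 3, and lower levels were those of Gja5 (0.862 ± 0.110) and Gjb1 (0.405 ± 0.0496), with Gjb2 in place 10 (0.090 ± 0.109). In Bnc1tr/tr ovaries Gjb2 stood in place 3 (6.81 ± 1.57), above the range of Gjc1 (2.76 ± 0.231) in place 5. There Gjb1 (0.842 ± 0.321) and Gjc3 were in places 6 and 7 with overlapping ranges, and Gja5 (0.449 ± 0.0474) was in place 8. Gjb5 and Gjb6 were in places 8 and 16 in Bnc1+/+ ovaries and 11 and 13 in Bnc1tr/tr ovaries, among neighbours with overlapping ranges. Among Bnc1+/+ ovaries Gjb2 stood in place 13 without replicate 1 and in place 9 without replicate 4 or 7, and among Bnc1tr/tr ovaries it was in place 3 with any 1 of them left out. Its places were the same with the length of the longest transcript, although Gja1 then took 86.3% rather than 71.7% of the connexin level in Bnc1+/+ ovaries, since its merged exons are far longer than its longest transcript.

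Genes that bind, anchor, phosphorylate or degrade connexins were followed as a list of 26, all of which were fitted. The median log2 fold change over the list was -0.063, against 0.018 over all genes fitted. Of the 26, 3 (11.5%) were called, beside 7.06% of all genes, and all 3 were lower, beside 4.19% of all genes. They were Ctnnb1, the beta-catenin of adherens junctions, at 1074, 1078 and 950 CPM in Bnc1+/+ ovaries and 600, 688 and 743 CPM in Bnc1tr/tr ovaries (log2 fold change -0.61 ± 0.11, SE; adjusted p = 0.019 with edgeR), and the kinases Prkca and Mapk3, which phosphorylate connexin 43. Prkca was at 22.8, 23.7 and 30.1 CPM against 12.8, 13.7 and 13.4 CPM (log2 fold change -0.94 ± 0.13, SE; adjusted p = 0.0067 with edgeR), and Mapk3 at 365, 414 and 408 CPM against 237, 298 and 287 CPM (-0.53 ± 0.11, SE; adjusted p = 0.033 with edgeR). None of the 3 overlapped between the genotypes, beside 30.8% of all genes fitted. Tjp1, the scaffold ZO-1 that binds connexin 43, had a log2 fold change of 0.08 ± 0.10 (SE; adjusted p = 0.67 with edgeR). Prkca was called with any ovary left out. Without Bnc1+/+ replicate 1 or 4 it was the 1 gene called, without Bnc1+/+ replicate 7 or Bnc1tr/tr replicate 3 Mapk3 was lost, without Bnc1tr/tr replicate 1 Vcl was added, and without Bnc1tr/tr replicate 2 there were 5, with Cdh1 and Prkaca added.

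A second list of 13 genes covered the signals and solutes that pass between granulosa cells and oocyte. Of these 1 (7.69%) was called, beside 7.06% of all genes. It was Lhcgr, the luteinizing hormone receptor. Lhcgr was at 544, 800 and 728 CPM in Bnc1+/+ ovaries and 92.8, 86.0 and 79.0 CPM in Bnc1tr/tr ovaries, a log2 fold change of -3.01 ± 0.16 (SE; adjusted p = 0.00024 with edgeR). Lhcgr is also among the 10 corpus luteum markers, of which 8 were called lower, beside 4.19% of all genes fitted. Those markers summed to 23411, 28108 and 27176 CPM in Bnc1+/+ and to 7357, 12733 and 11188 CPM in Bnc1tr/tr ovaries, and the part of this in the connexin levels, Gja1 among them, was not tested. The median log2 fold change of the 13 was 0.18. Without Bnc1tr/tr replicate 1 Slc38a3 was called too, and without Bnc1tr/tr replicate 2 Adcy3 and Cdc25b were. Gpr3, the oocyte receptor that keeps cyclic AMP high, had 1.38, 2.08 and 2.41 CPM against 5.37, 3.39 and 3.63 CPM, with a log2 fold change of 1.07 ± 0.29 (SE) that did not pass adjustment (adjusted p = 0.068 with edgeR). Nppc, the granulosa ligand that raises the cyclic GMP carried through gap junctions, had a log2 fold change of 0.46 ± 0.15 (SE; adjusted p = 0.11 with edgeR).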

How the data were processed

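Total RNA was extracted with TRIzol from ovaries of 3 Bnc1+/+ and 3 Bnc1tr/tr mice, and the single-end libraries were run on an Ion Proton sequencer. As deposited by the authors, the values are whole-number counts of reads for 44788 gene symbols, not normalized. The aligner, the counting tool and its use of strand are not given in the sources used here. The submitters' processing notes name the build mm10 and also a pig build, Sscrofa10.2, whose role is not stated. Totals per ovary of 25247770 to 34406296 reads set the precision at low counts.

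The connexins and all lists were chosen with earlier results of these data known. Genes were filtered with filterByExpr of edgeR 4.0.16 (minimum count 10; R 4.3.3), scaled with TMM and compared by genotype with glmQLFit and glmQLFTest, two-sided, with Benjamini-Hochberg adjustment over 19423 genes, and a gene was called at an adjusted p under 0.05. Intervals of 95% used the moderated degrees of freedom. The floor was 3 reads per library and covers counting error only. By rule, the genes named were the members, Bnc1, other connexins and pannexins that were fitted, called partner and exchange genes, the 5 nearest profiles of Gjb2 and Gja1 (log2 CPM, prior count 2), called genes within 100 kilobases of a member, and cell type markers that are at 0 or moved with a member. Genes named after their values were seen were Gpr89, Zfp697, Tjp1, Gpr3, Nppc, Alb, Fgb, Krt1, Krt5, Ovgp1, Acta2, Tagln, Myh11, Rgs5, Des, Emcn, Gkn3, Bmx, Gja3, Panx3, Gjd2, Gje1 and genes called only under an alternative. So were Sfn, Trp63, Krt14, Cyp2e1, Efnb2, Sox17 and Hey1. Alternatives were DESeq2 size factors, library size only, no filter, a minimum of 10 counts in every ovary, the omission of each ovary in turn, limma-voom (limma 3.58.1), DESeq2 1.42.0, the longest transcript as length and a prior count of 0.5. The fit was tested on simulated data. Positions came from GRCm38 with GENCODE M21 and upstream windows from RefSeq (GRCm38.p6). Protein sequences were not used here, and some connexin genes outside the members are not reported here.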

Additional observations from a re-analysis of the deposited data

How the results depend on the processing

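The direction of Gja4, Gja5, Gjb1, Gjb2 and Gjc1 was kept under each alternative that fitted them. Gja1 had a log2 fold change of -0.093 without Bnc1tr/tr replicate 1 and was positive otherwise, with 0.276 as its highest. Over all genes, 1372 were called in the fit as described, 2420 by DESeq2, and between 320 (without Bnc1+/+ replicate 4) and 1282 when an ovary was left out. With library size as the only scaling 1728 were called, 1112 of them higher, and the median log2 fold change of all genes moved from 0.018 to 0.118. Of the members, whose calls are a description since this contrast chose them, 3 were called as described, 1 (Gja5) with at least 10 counts in every ovary, where Gjb2 could not be fitted, and between 1 and 2 when an ovary was left out. Gjb2 was called in each of those 6 fits, and with Gjb1 without Bnc1tr/tr replicate 2. Gjb6 could be fitted only with no filter, and was then called. No call was made among the other connexins and pannexins under any alternative. Of the partner genes, 3 were called as described, 6 by DESeq2, and between 1 and 5 when an ovary was left out. Of the exchange genes, 1 was called as described, 3 with library size only, 4 by DESeq2, and between 1 and 3 when an ovary was left out, and Lhcgr was among them each time. With an ovary left out fewer samples are fitted, and the cause of the other shifts was not tested. With a prior count of 0.5, the 5 genes nearest to Gjb2 were the same and 4 of the 5 nearest to Gja1 were kept. Depth limits Gjb5, Gjb6 and the connexins under about 10 reads, for which a difference may have gone undetected. No paired analysis was possible because the labels of the 2 genotypes share only the replicate number 1, and although the methods describe the mice as littermates, no number is tied to a litter.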
